A study of Homo sapiens with 4 samples.

Results

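The sites described here are those of TRIM24 and TRIM28 at 39 imprinted genes, 35 coding for protein and 4 for long noncoding RNAs, out of 38690 protein-coding and lncRNA genes of GENCODE release 44 on GRCh37. The genes were listed because TRIM28 acts at imprinting control regions, and the rule uses no measured value. They were nevertheless chosen with earlier results of these data known. A site was assigned to a gene when its centre lay in the gene body or within 10 kb on either side, which gave 8 of 5232 TRIM24 sites with ethanol and 14 of 9363 with R1881. The same windows held 102 of 58201 TRIM28 sites with ethanol and 48 of 34574 with R1881.

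ChIP-seq was performed in LNCaP, a human line of prostate cancer cells that respond to androgen and that the labels give as wild type (WT), with 1 sample per condition and no replicate. The TRIM24 samples came from LNCaP cells that stably expressed HA-TRIM24 and were immunoprecipitated through the HA tag, so they report the tagged protein and not TRIM24 at its natural level. The TRIM28 samples came, per the labels, from LNCaP cells without mention of the tag and were pulled down with an antibody against TRIM28. All cells were kept for 3 days in 5% charcoal-stripped serum and then given either ethanol, the vehicle, or 10 nM R1881, a synthetic androgen, for 16 h. A description of the same samples by the study instead names HA-TRIM24 cells for TRIM28 too, and which holds could not be settled here. The antibody and the depth, and possibly the cells, differ between the 2 proteins, so that a difference between TRIM24 and TRIM28 cannot be told apart from a difference between the pull-downs.

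Imprinted genes are expressed mainly from the copy inherited from 1 parent. The choice is kept by control regions that are methylated on the maternal or the paternal copy only. At the methylated copy a KRAB zinc finger protein such as ZFP57 binds its methylated motif and brings in TRIM28 (also KAP1), which assembles SETDB1, HP1 proteins and DNA methyltransferases. TRIM24 belongs to the same protein family and reads histone marks through its PHD finger and bromodomain. It is known as a coactivator of nuclear receptors, the androgen receptor among them.

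Depth set which sites could be listed. The samples differed in size: the TRIM24 libraries held 11606880 tags (ethanol) and 12884097 tags (R1881), and the TRIM28 libraries 25145171 tags (ethanol) and 14231181 tags (R1881). Site strength is given as normalized tags, the tags in a site scaled to 10000000 per sample. The authors' caller asked for 9, 9, 12 and 9 tags in the same order, equal to 7.8, 7.0, 4.8 and 6.3 normalized tags. A site that is not listed was below about that level or failed the caller's other filters, such as standing 4-fold above its local 10 kb. The listed sites at the imprinted genes began at 6.9, 7.0, 4.4 and 5.6 normalized tags. The TRIM28 sample with R1881 had 0.566 times the tags of its ethanol counterpart, and the TRIM24 sample with R1881 had 1.11 times. No test between conditions was possible, and every interval below covers counting error only.

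The sequences that follow are the plus strand of GRCh37, the build of the authors' hg19 coordinates, with CpG dinucleotides in capitals because a control region carries its methylation there. The first 6 are the strongest TRIM28 site of each of the 6 control regions with the strongest sites. A control region here is a window placed by annotated starts, which need not hold the methylated region itself. Sites that touch an untranslated region are shown by the 30 bases at their centre. L3MBTL1 lies at chr20:42136294-42136323, FAM50B at chr6:3849180-3849344, PEG3 at chr19:57346184-57346348, NNAT at chr20:36147631-36147660, GNAS at chr20:57482831-57482987 and INPP5F at chr10:121485622-121485651.
L3MBTL1: gggaggCGgaccCGcccccCGaaCGCGcag
FAM50B: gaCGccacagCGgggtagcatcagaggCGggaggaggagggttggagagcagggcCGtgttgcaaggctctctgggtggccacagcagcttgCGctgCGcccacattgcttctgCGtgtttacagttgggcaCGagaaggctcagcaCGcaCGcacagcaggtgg
PEG3: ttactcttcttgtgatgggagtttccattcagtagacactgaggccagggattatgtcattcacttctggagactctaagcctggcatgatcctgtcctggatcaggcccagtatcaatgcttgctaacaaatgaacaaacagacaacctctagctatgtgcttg
NNAT: gacctaatgggagccagCGggCGcaggCGg
GNAS: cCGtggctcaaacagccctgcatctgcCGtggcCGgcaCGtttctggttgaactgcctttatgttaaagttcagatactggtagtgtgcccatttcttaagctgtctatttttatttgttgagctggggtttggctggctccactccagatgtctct
INPP5F: gtCGggtgcccCGgggCGttccctctgcCG
The FAM50B site held 10 CpGs in 165 bases and the PEG3 site none. The NNAT and INPP5F stretches held 3 and 4 CpGs in 30 bases. None of the 6 printed runs held TGCCGC, the core that ZFP57 recognises when it is methylated, on either strand. The 30-base runs show only part of a site, and the 200 bp around the INPP5F site centre held 2 copies.

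Another 4 sequences were chosen after their values were seen. They are the site upstream of the usual MEG3 start at chr14:101277319-101277483, and TRIM28 sites at least 2-fold apart between treatments, at chr11:2716851-2717015 in KCNQ1OT1 and chr7:50651127-50651291 downstream of GRB10. The last is the centre of the strongest TRIM24 site, at chr6:160521795-160521824 in IGF2R.
MEG3 upstream: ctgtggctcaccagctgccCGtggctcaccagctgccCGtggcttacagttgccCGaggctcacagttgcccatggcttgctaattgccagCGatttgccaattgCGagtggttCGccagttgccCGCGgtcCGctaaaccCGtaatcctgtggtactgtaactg
KCNQ1OT1 internal: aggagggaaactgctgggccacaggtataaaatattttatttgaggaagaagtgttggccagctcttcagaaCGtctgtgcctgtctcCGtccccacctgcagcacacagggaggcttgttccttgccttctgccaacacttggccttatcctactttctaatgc
GRB10 downstream: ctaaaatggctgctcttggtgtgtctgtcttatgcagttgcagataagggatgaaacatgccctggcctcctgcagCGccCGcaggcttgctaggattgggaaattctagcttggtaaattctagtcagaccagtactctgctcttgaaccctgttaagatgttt
IGF2R TRIM24: tttttttttttttttttttttttttttttt
The MEG3 site held 10 CpGs in 165 bases, and the KCNQ1OT1 and GRB10 sites held 2 each. The centre of the IGF2R site was an unbroken run of T.

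TRIM28 sites were found near a transcription start site (TSS) of 22 of the 39 imprinted genes with ethanol and of 13 with R1881, whereas TRIM24 sites were found near a TSS of 4 and 6. A site counted here when its centre lay within 2 kb of any annotated TSS of the gene. Over the 35 protein-coding members, 21 (60.0%) had such a TRIM28 site with ethanol, against 56.5% of all 20098 protein-coding genes. With R1881 it was 13 (37.1%) against 37.5%. For TRIM24 it was 4 (11.4%) against 10.6% with ethanol and 6 (17.1%) against 18.5% with R1881. In each of the 4 samples the share of imprinted genes with a site near a TSS was thus within 4 percentage points of the share over all genes.

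The imprinted genes carry more annotated starts than most genes, with a median of 9 TSSs for the protein-coding members and 5 for all protein-coding genes. At the canonical TSS alone, 11 of the 35 members (31.4%) had a TRIM28 site with ethanol against 50.4% of 19819 genes, and 5 (14.3%) had one with R1881 against 31.1%. For TRIM24 the canonical TSS gave 2 members (5.71%) against 8.91% with ethanol and 4 (11.4%) against 15.7% with R1881. So the share of members was close to that of all genes over any TSS and lower at the canonical TSS in all 4 samples. For TRIM24 the canonical shares rest on 2 and 4 members, and no interval was computed for the shares of either protein. The TRIM28 share with ethanol was 31.4% against 35.0% when only sites that would reach 9 tags at the R1881 depth were kept. The TRIM28 shares with R1881, 14.3% against 31.1%, are at that depth already. Members with a TRIM28 site near the canonical TSS in both treatments were MKRN3, L3MBTL1, BLCAP, HM13 and IGF2R.

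Over the whole window of gene body and 10 kb flanks, 27 of 35 protein-coding members (77.1%) held a TRIM28 site with ethanol against 79.1% of all protein-coding genes. With R1881 it was 21 (60.0%) against 63.8%. TRIM24 sites lay in 8 windows (22.9%) against 19.0% with ethanol and in 10 (28.6%) against 31.6% with R1881. The merged windows of the 39 genes covered 3.82 Mb and held 26.7 TRIM28 sites per Mb with ethanol (95% Poisson interval 21.8 to 32.4) and 12.6 with R1881 (9.27 to 16.7). The windows of all protein-coding genes held 25.3 and 14.7 per Mb. For TRIM24 the densities were 2.10 per Mb (0.905 to 4.13) with ethanol and 3.67 (2.01 to 6.16) with R1881, against 2.10 and 4.11 over all protein-coding genes. Each of the 4 densities of the imprinted genes had an interval that held the value over all protein-coding genes.

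**Figure D1:**
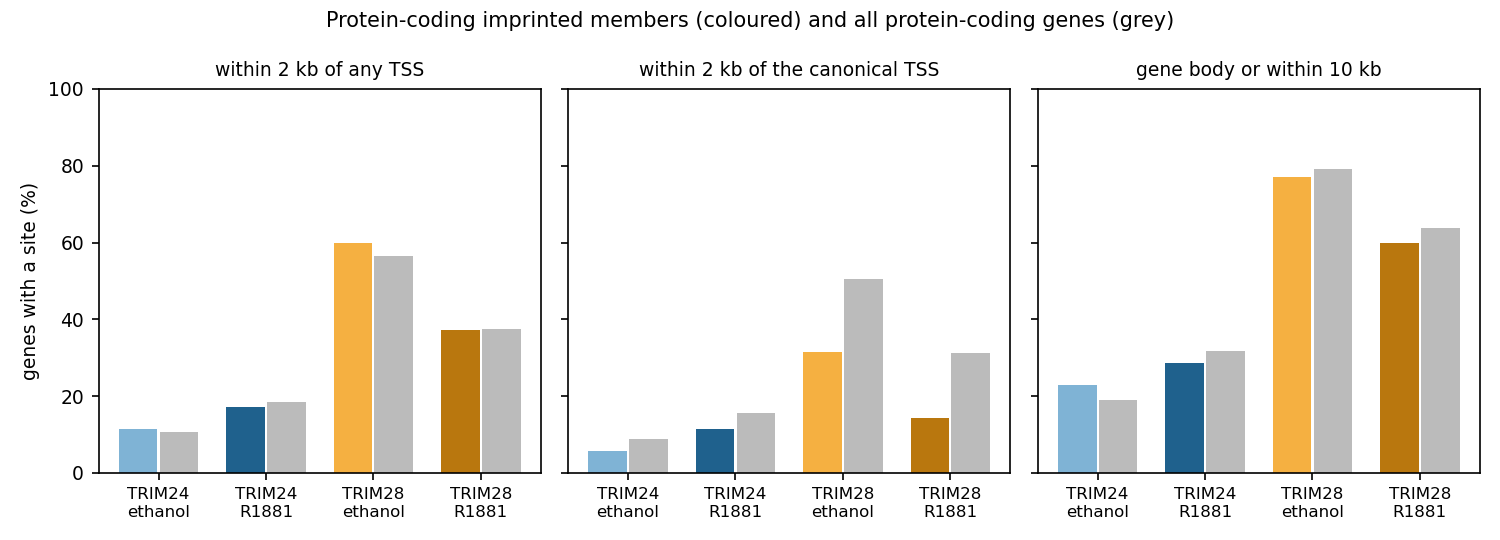
Percent of genes with a site in each of the 4 samples (x axis), for the 35 protein-coding imprinted genes (coloured bars) and all protein-coding genes (grey bars), with a site within 2 kb of any TSS (left), within 2 kb of the canonical TSS (middle) or in the gene body or within 10 kb (right). The coloured and grey bars are close on the left (60.0% and 56.5% for TRIM28 with ethanol) and further apart in the middle (31.4% and 50.4%).

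The difference in depth bears on the 9 members with a TRIM28 site near a TSS with ethanol only, which were ERLIN2, FAM50B, GRB10, IGF2, INPP5F, KCNK9, KCNQ1OT1, NNAT and PHLDA2. When the ethanol sites were kept only where their tags, scaled to the R1881 depth, would reach 9, a step extended to all genes after seeing the data, 8 of these 9 kept a site and KCNQ1OT1 lost it. Of the 21 protein-coding members with such a site with ethanol, 8 (38.1%) had none with R1881, against 38.7% of all protein-coding genes with one. All 8 kept a site at the R1881 depth, against 55.2% of all protein-coding genes with an ethanol site only. At that depth 19 of 35 protein-coding members (54.3%) had a TRIM28 site near any TSS with ethanol against 40.8% of all protein-coding genes, and 11 (31.4%) had one near the canonical TSS against 35.0%. No member had a TRIM28 site near a TSS with R1881 only, against 7.65% of all protein-coding genes with such a site with R1881.

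The imprinted sites were of ordinary strength for their samples. The median was 8.6 normalized tags for TRIM24 with ethanol and 9.3 with R1881, and 6.8 for TRIM28 with ethanol and 7.0 with R1881. Over all sites the medians were 10.3, 9.3, 6.4 and 7.7. Sites among the strongest 10% of their sample numbered 1 of 8 (12.5% against 10.0% of all sites, ties included), 1 of 14 (7.14% against 10.2%), 8 of 102 (7.84% against 10.0%) and 4 of 48 (8.33% against 10.5%). Counting overlapping sites of different samples once gave 131 sites, of which 83 lay in introns, 21 between genes, 13 in exons of noncoding transcripts, 9 in untranslated regions and 5 in coding exons. None of the 131 was present in all 4 samples. At most 1 could be, since 1 was in both TRIM24 samples, and the same count over all sites was not made.

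**Figure D2:**
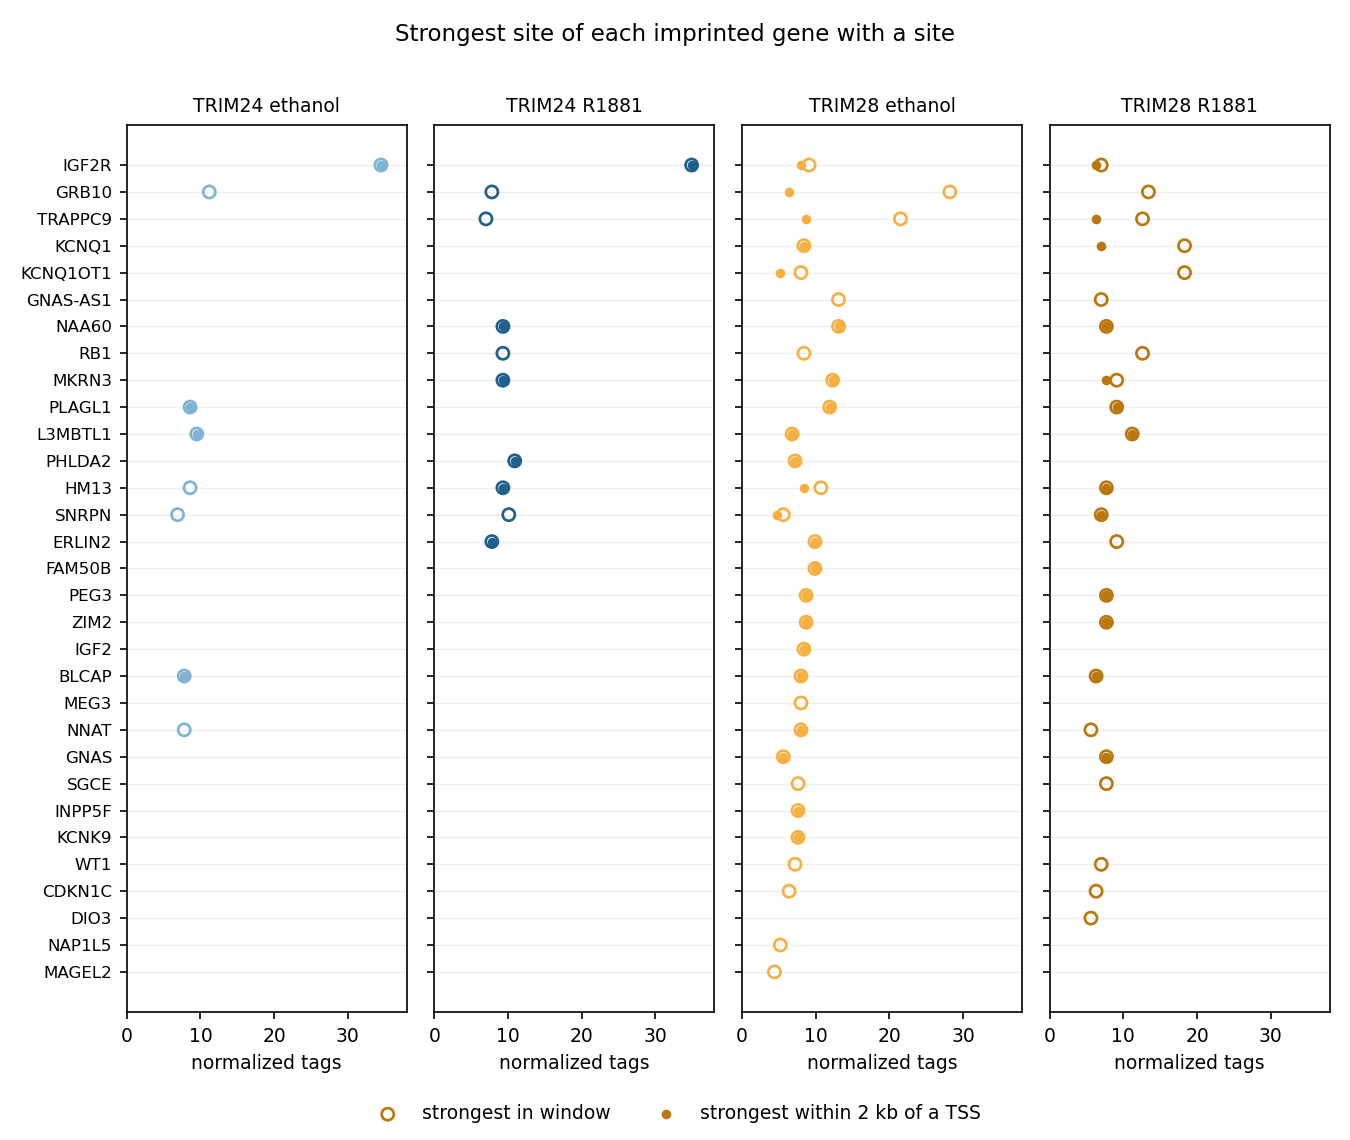
Normalized tags (x axis) of the strongest site in the window of gene body and 10 kb flanks (open circles) and of the strongest site within 2 kb of a TSS (filled points), for the 31 imprinted genes with a site (rows), in each sample (panels). Most values lie between 4.4 and 13.4, and the exceptions are IGF2R for TRIM24 (34.5 and 34.9) and GRB10, TRAPPC9, KCNQ1 and KCNQ1OT1 for TRIM28.

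At the KCNQ1 cluster, TRIM28 sites lay on the control region KvDMR1 with ethanol. KvDMR1 holds the start of KCNQ1OT1, a noncoding RNA made from the paternal copy that silences its neighbours. Of these sites, 1 was centred 44 bp inside the KCNQ1OT1 start and another 314 bp upstream of it, both at 5.2 normalized tags, and neither was listed with R1881 or for TRIM24. They had 22 and 20 CpGs in the 200 bp around their centres. Their 5.2 normalized tags are below the caller's minimum in each other sample, so a site of that height would not be listed there. Of all TRIM28 sites with ethanol, 85.7% were at least as strong. The strongest site of the gene with R1881 lay 4300 bp inside KCNQ1OT1, with 8.0 normalized tags with ethanol and 18.3 with R1881. The ratio of R1881 to ethanol there was 2.30 (95% interval 1.23 to 4.34), from 20 and 26 tags, and every 32-base word of the site occurred once in the genome.

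KCNQ1, the potassium channel gene that KCNQ1OT1 crosses, had TRIM28 sites of 8.4 and 4.8 normalized tags at 117 and 886 bp from annotated starts at its 5′ end with ethanol. Another TSS site, at 1966 bp from an internal start, had 5.6 normalized tags with ethanol. With R1881 its TSS site had 7.0 normalized tags, at 1686 bp from that internal start. In all, 11 TRIM28 sites lay in its window with ethanol and 4 with R1881, several shared with KCNQ1OT1, and TRIM24 had none at either gene. PHLDA2, a growth-restraining gene of the placenta, had TRIM28 sites of 6.8 and 7.2 normalized tags with ethanol and none with R1881. TRIM24 was the reverse there, with no site with ethanol and 10.9 normalized tags with R1881 at 390 bp from the start, beside a weaker distal site of 8.5. The PHLDA2 sites of TRIM24 and TRIM28 near the start lay side by side and did not overlap. IGF2, a fetal growth factor, had a single TRIM28 site of 8.4 normalized tags with ethanol, 1513 bp from a start, and no other site in any sample. H19, the noncoding RNA that shares its control region with IGF2, had no site in any sample.

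**Figure D3:**
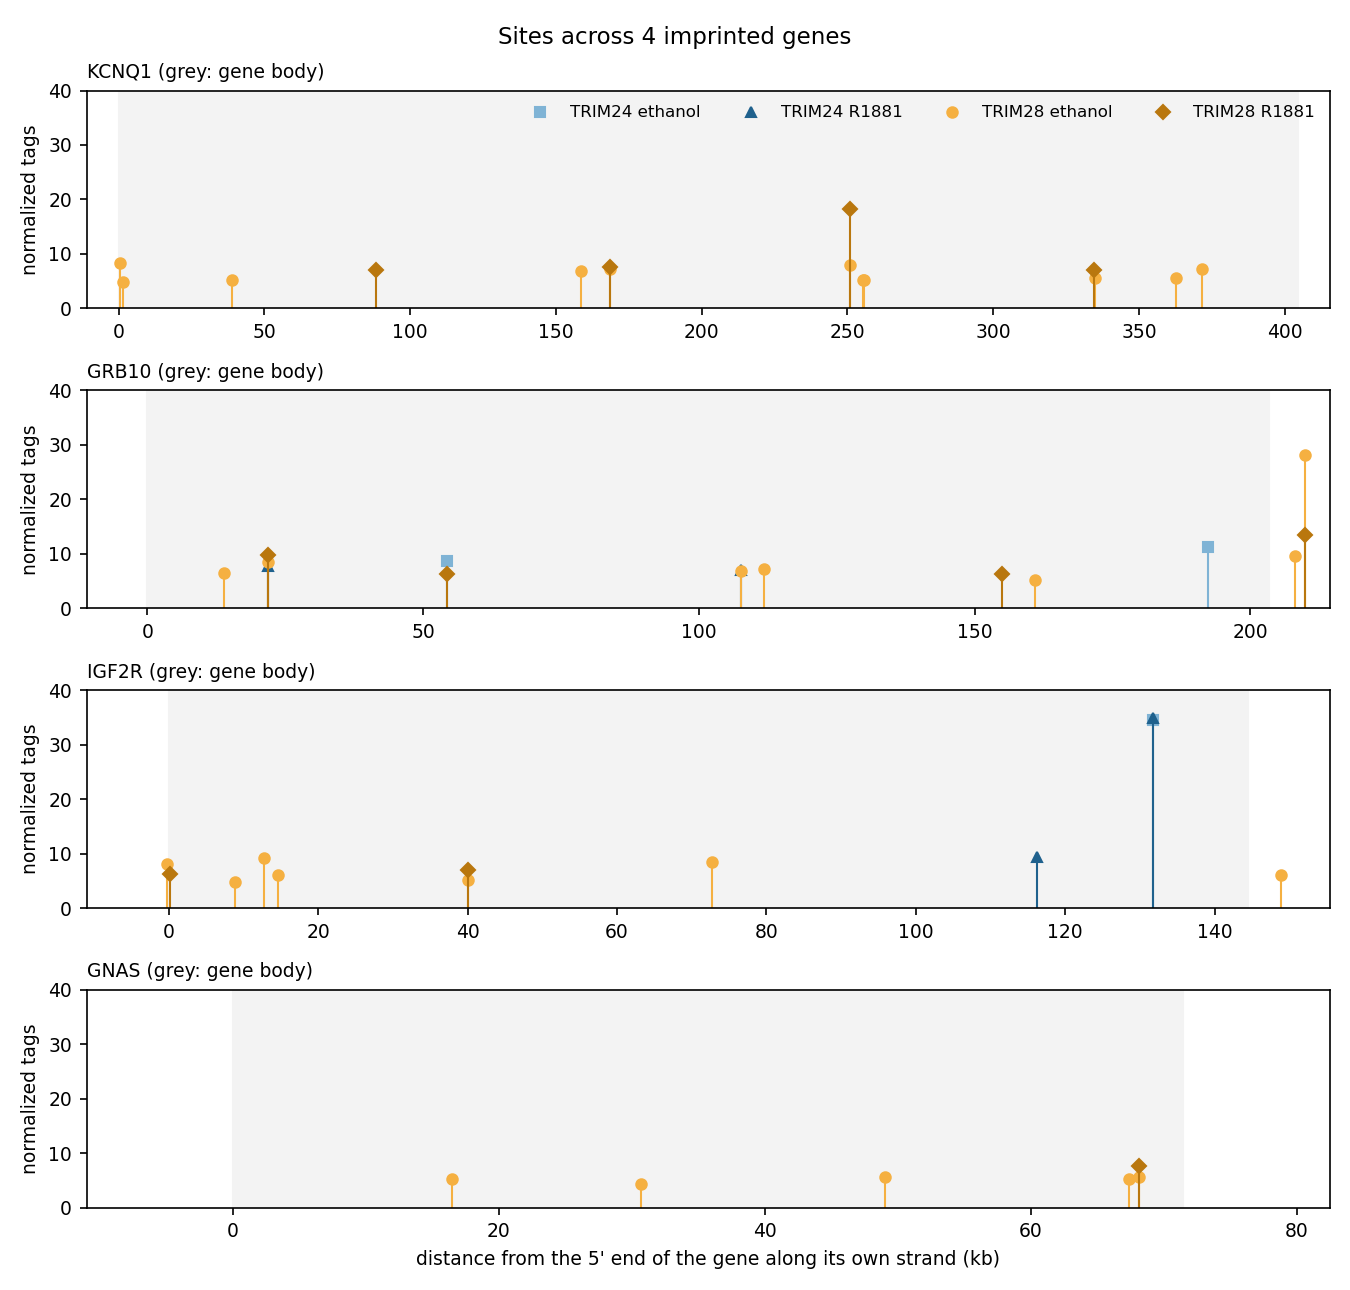
Normalized tags (y axis) of every site against the distance from the 5′ end of the gene along its own strand in kb (x axis), for KCNQ1, GRB10, IGF2R and GNAS, with the gene body in grey and a colour and marker for each sample. The tallest marks are the TRIM24 site near the 3′ end of IGF2R, the TRIM28 site downstream of GRB10 and the TRIM28 site within KCNQ1OT1, and in GNAS no mark is above 7.7.

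At the GRB10 locus the strongest TRIM28 site lay outside the gene. GRB10, an adaptor that dampens insulin and IGF receptor signalling, had a TRIM28 site of 28.2 normalized tags with ethanol in the 10 kb beyond its 3′ end, and 0.826% of all TRIM28 sites of that sample were at least as strong. With R1881 the same site had 13.4 normalized tags. The ratio was 0.473 (95% interval 0.269 to 0.793), from 71 and 19 tags. Of its 32-base words, 82.0% occurred once in the genome. Near a TSS, GRB10 had 6.4 normalized tags of TRIM28 with ethanol, at 10 bp upstream of an alternative start, and none with R1881. TRIM24 sites lay elsewhere in the gene, at 11.2 and 8.6 normalized tags with ethanol and at 7.8 and 7.0 with R1881, none of them near a TSS and none at the same place in both treatments.

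IGF2R held the strongest TRIM24 site of the imprinted genes. It encodes the receptor that clears IGF2 from the cell surface. The site had 34.5 normalized tags with ethanol and 34.9 with R1881, a ratio of 1.01 (95% interval 0.647 to 1.59), from 40 and 45 tags. It was the single member site that TRIM24 shared between treatments, 1 of 8 with ethanol (12.5%) and 1 of 14 with R1881 (7.14%), against 46.4% and 25.5% of all TRIM24 sites. No TRIM28 site lay there. It counted as a TSS site through a short transcript that starts 482 bp away near the 3′ end of the gene. The site crossed a run of 83 T, and 21.1% of its 32-base words occurred once in the genome, the most repeated one 62841 times. A run of at least 20 identical bases lay in the 200 bp around 2.46% of all TRIM24 sites with ethanol and 1.32% with R1881, and around 0.222% and 0.237% of TRIM28 sites. Without this site, a setting added after seeing the data, TRIM24 had a TSS site at 3 members with ethanol and still at 6 with R1881. The part of repeated sequence in its height was not tested.

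TRIM28 sat at other places of IGF2R. At the main start it had 8.0 normalized tags with ethanol, 245 bp upstream, and 6.3 with R1881, 114 bp downstream. Near AIRN, the antisense RNA that starts in the imprinted region of the gene, a site 1450 bp upstream of the AIRN start had 5.2 normalized tags with ethanol and 7.0 with R1881, a ratio of 1.36 (0.533 to 3.36). A weaker TRIM24 site of 9.3 normalized tags with R1881 lay 305 bp from another internal start of IGF2R and had no counterpart with ethanol.

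In the Prader-Willi region on chromosome 15, MKRN3 had sites of both proteins at its start. MKRN3 is a makorin ring finger gene that restrains puberty. At 49 bp upstream of its start TRIM28 had 12.3 normalized tags with ethanol and 7.7 with R1881 (ratio 0.627, 0.284 to 1.28), and TRIM24 had no site with ethanol and 9.3 normalized tags with R1881. SNRPN is a spliceosome protein gene whose main promoter lies at the imprinting centre. No TRIM28 site lay within 2 kb of its canonical start in either treatment. Its TRIM28 TSS sites lay at alternative starts far upstream, 131 kb from the canonical start with ethanol (4.8 normalized tags) and 130 and 97.8 kb from it with R1881 (5.6 and 7.0). These did not overlap between treatments. TRIM24 had 6.9 normalized tags with ethanol and 10.1 with R1881 in SNRPN introns at different positions, none near a TSS. MAGEL2 had 1 TRIM28 site of 4.4 normalized tags with ethanol, and NDN had none.

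At the zinc finger genes PEG3 and ZIM2 on chromosome 19, which share a start, a TRIM28 site 1151 bp upstream of an annotated PEG3 start had 8.7 normalized tags with ethanol and 7.7 with R1881 (ratio 0.883, 0.387 to 1.90). With R1881 another site of 7.0 normalized tags lay 204 bp inside a PEG3 start. TRIM24 had no site at either gene in either treatment. PLAGL1, a zinc finger factor that slows growth, had a TRIM28 site of 11.9 normalized tags with ethanol and 9.1 with R1881 at 467 bp from a start (ratio 0.766, 0.367 to 1.51). TRIM24 had 8.6 normalized tags there with ethanol and no site with R1881.

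GNAS, which encodes the stimulatory G protein subunit, had TRIM28 TSS sites of 5.6, 5.6 and 5.2 normalized tags with ethanol. With R1881 1 TSS site of 7.7 normalized tags remained, 127 bp upstream of an internal start, where the ratio was 1.39 (0.570 to 3.29). TRIM24 had no site in the GNAS window. GNAS-AS1, its antisense RNA, had stronger TRIM28 sites away from starts, at 13.1 normalized tags with ethanol and 7.0 with R1881 (ratio 0.535, 0.235 to 1.11).

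The other chromosome 20 genes held both proteins. L3MBTL1, a reader of methylated histones, had TRIM28 sites of 6.8 normalized tags with ethanol and 11.2 with R1881 at its start (ratio 1.66, 0.786 to 3.50), and TRIM24 had 9.5 with ethanol and no site with R1881. Of the windows placed for control regions, that of L3MBTL1 was the single one with a TRIM24 site, 44 bp upstream of the start. Whether this site lies on the methylated region was not tested. BLCAP, which hosts NNAT in its intron, had TRIM28 TSS sites of up to 8.0 normalized tags with ethanol and up to 6.3 with R1881. TRIM24 had 7.8 normalized tags at the main BLCAP start with ethanol and none with R1881. NNAT, a neuronal membrane protein gene, had 8.0 normalized tags of TRIM28 with ethanol 1962 bp upstream of its start and no TSS site with R1881 or for TRIM24. This NNAT site also counted for BLCAP, as it lay 1059 bp from a BLCAP start. HM13, the signal peptide peptidase gene that hosts the imprinted retrogene MCTS2, had 8.4 normalized tags of TRIM28 with ethanol and 7.7 with R1881 at its start. TRIM24 had 9.3 normalized tags there with R1881 beside an intronic site of 7.8, and with ethanol its single HM13 site was an intronic one of 8.6.

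Among the remaining members with a TSS site, NAA60, an N-terminal acetyltransferase gene, had TRIM28 at 13.1 normalized tags with ethanol and up to 7.7 with R1881, and TRIM24 at 9.3 with R1881 only. The NAA60 site found with both treatments had a ratio of 0.535 (0.235 to 1.11). INPP5F, an inositol phosphatase gene, had TRIM28 sites of 7.6 and 6.0 normalized tags with ethanol and no site in the other samples. FAM50B, a retrogene, had 9.9 normalized tags of TRIM28 345 bp upstream of its start with ethanol, and no site in the other samples. ERLIN2, an endoplasmic reticulum protein gene, had 9.9 normalized tags of TRIM28 with ethanol at its start and no TSS site with R1881. TRIM24 had 7.8 normalized tags at the ERLIN2 start with R1881 and none with ethanol.

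On chromosome 8, TRAPPC9, the longest member at 729 kb and a trafficking complex gene, held 25 TRIM28 sites with ethanol and 8 with R1881. Its strongest had 21.5 normalized tags with ethanol and 12.6 with R1881 (ratio 0.589, 0.325 to 1.02) and lay in an intron. Its TSS sites reached 8.7 normalized tags with ethanol and 6.3 with R1881, and TRIM24 had 1 intronic site of 7.0 with R1881. PEG13, the noncoding RNA inside TRAPPC9 whose start is a control region, had 4.4 normalized tags of TRIM28 with ethanol. KCNK9, a potassium channel gene next to it, had TRIM28 TSS sites of 7.2 and 7.6 normalized tags with ethanol and no site in the other samples. RB1, the retinoblastoma gene, had no TSS site. Its TRIM28 site downstream of the annotated 3′ end had 4.4 normalized tags with ethanol and 12.6 with R1881 (ratio 2.89, 1.29 to 6.77), from 11 and 18 tags, and 55.3% of its 32-base words occurred once in the genome. It lay 129593 bp from the nearest RB1 start. The ethanol value was below the caller's minimum of 4.8, and 99.2% of all TRIM28 sites with ethanol were at least as strong. TRIM24 had 1 intronic site in RB1 with R1881, of 9.3 normalized tags.

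The remaining 16 members had no TRIM28 site near a TSS and no TRIM24 site. Of these, 8 had TRIM28 sites in the gene body or flanks. They were CDKN1C, SGCE, MAGEL2, MEG3, DIO3, NAP1L5, GNAS-AS1 and WT1, with 4.4 to 13.1 normalized tags at the strongest site of each. The other 8, DIRAS3, DLK1, H19, MEST, NDN, PEG10, RTL1 and ZDBF2, had no site in any of the 4 samples. Of all protein-coding genes, 79.1% had a TRIM28 site with ethanol in this window. The share of all genes with none in any sample was not computed.

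Control regions were approximated at 24 positions by annotated starts, with a site counted within 2 kb. For H19 and for the region between DLK1 and MEG3, a window upstream of the start was used instead. The methylated regions themselves were not mapped here. TRIM28 with ethanol had a site at 11 of them (45.8%), which were KvDMR1, PEG3, GRB10, SNRPN, GNAS, L3MBTL1, NNAT, INPP5F, FAM50B, PEG13 and IGF2R. Over the same width, 41.4% of the 146028 distinct TSSs of protein-coding genes had a TRIM28 site in that sample. With R1881 it was 5 control regions (20.8%), PEG3, SNRPN, GNAS, L3MBTL1 and IGF2R, against 25.3% of TSSs. TRIM24 had a site at 1 (4.17%) against 7.20% with ethanol and at none against 12.9% with R1881. Genes with several starts span more than a single window, so the control region share is not of equal width. With the canonical start of each gene alone, an alternative added after seeing the data, TRIM28 had a site at 6 of the 24 regions with ethanol, KvDMR1, L3MBTL1, INPP5F, FAM50B, PEG13 and IGF2R, and at 2 with R1881, L3MBTL1 and IGF2R. Over all protein-coding genes, 50.4% with ethanol and 31.1% with R1881 had a TRIM28 site near the canonical start. Some of the starts used for control regions are of noncoding genes. The sites at PEG3, GRB10, SNRPN and GNAS lay near other annotated starts of these genes, which need not be at the control region. The NNAT site lay 1962 bp upstream of the nearest NNAT start, at the edge of the 2 kb window. A canonical start need not be there either. The sites at the starts of L3MBTL1 and INPP5F may thus lie outside their control regions. TRIM24 kept its site at L3MBTL1 with ethanol.

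The control region sites differed in base composition. In the 200 bp around the centre, sites at KvDMR1, L3MBTL1, NNAT, INPP5F, FAM50B and PEG13 held between 11 and 30 CpGs with ethanol, while those at PEG3, GRB10, SNRPN and IGF2R held 2 or fewer. GNAS spanned the range, with 25, 1 and 4 CpGs at its 3 sites. Over all member sites, 28.4% of TRIM28 sites with ethanol and 20.8% with R1881 held at least 10 CpGs, against 21.8% and 19.2% of all sites on chromosomes 1 to 22 and X. For TRIM24 it was 3 of 8 with ethanol and 5 of 14 with R1881, against 40.2% and 38.7%.

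H19 and MEG3 needed a second look because their canonical transcripts start far upstream of most others. The canonical MEG3 start lay 46.7 kb from the start near which 27 of its 50 transcripts begin, and for H19 the distance was 7.04 kb. With the common starts, an alternative added after seeing the data, the window 10 to 20 kb upstream of MEG3 held a TRIM28 site of 8.0 normalized tags with ethanol and none in the other samples. This is the region between DLK1 and MEG3 that controls the cluster. Its site had 12 CpGs in 200 bp, and every 32-base word of it occurred once in the genome. The H19 window was empty in all 4 samples with either start. With this change 12 of 24 control regions held a TRIM28 site with ethanol, beside 41.4% of the TSSs of protein-coding genes, with windows of unlike width.

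TGCCGC was found in the 200 bp around 12 of 102 TRIM28 sites with ethanol (11.8%) and 2 of 48 with R1881 (4.17%), against 7.20% and 6.44% of all sites of those samples. For TRIM24 it was 0 of 8 and 3 of 14 (21.4%), against 9.91% and 10.7%. Within 2 kb of the canonical TSS, 32 of 35 protein-coding members (91.4%) had at least 1 TGCCGC, against 67.0% of all protein-coding genes, with medians of 3 and 1 per window. Control region sites with the motif were those of KvDMR1, INPP5F and PEG13. A match to the CTCF consensus with up to 3 mismatches was found at 1 TRIM28 site with ethanol (0.980% against 0.744%), at KCNK9, and at none of the other samples' member sites. A match describes the letters and is no evidence of methylation or of binding by ZFP57 or CTCF.

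Between treatments, 27 TRIM28 sites of the imprinted genes overlapped by at least 1 bp, which was 26.5% of those with ethanol and 56.2% of those with R1881, against 37.0% and 62.6% of all TRIM28 sites. Here their median ratio of R1881 to ethanol was 1.06, the same as over all 21372 such sites. The ratio was above 1 at 15 and below 1 at 12. A matched site had to be listed in both samples, whose minimums were 4.8 normalized tags with ethanol and 6.3 with R1881. Ethanol sites below 5.6, the lowest value listed with R1881, could thus match only at a ratio above 1. The RB1 site, at 4.4, was among them, and the same filter applied to all matched sites. At least 2-fold differences were seen at 3 of the 27, against 3.47% of all matched sites. They were higher with R1881 at KCNQ1OT1 and RB1 and lower at GRB10, and these were also the 3 whose 95% interval excluded 1, without adjustment over the 27. For TRIM24, 1 site was matched, that of IGF2R, against a background of 7.75% of 2298 matched sites at least 2-fold apart. Among the other members no site in both treatments moved by 2-fold, and the strongest ethanol sites of TRAPPC9, NAA60 and GNAS-AS1 had ratios from 0.535 to 0.589 with intervals that reached past 1.

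**Figure D4:**
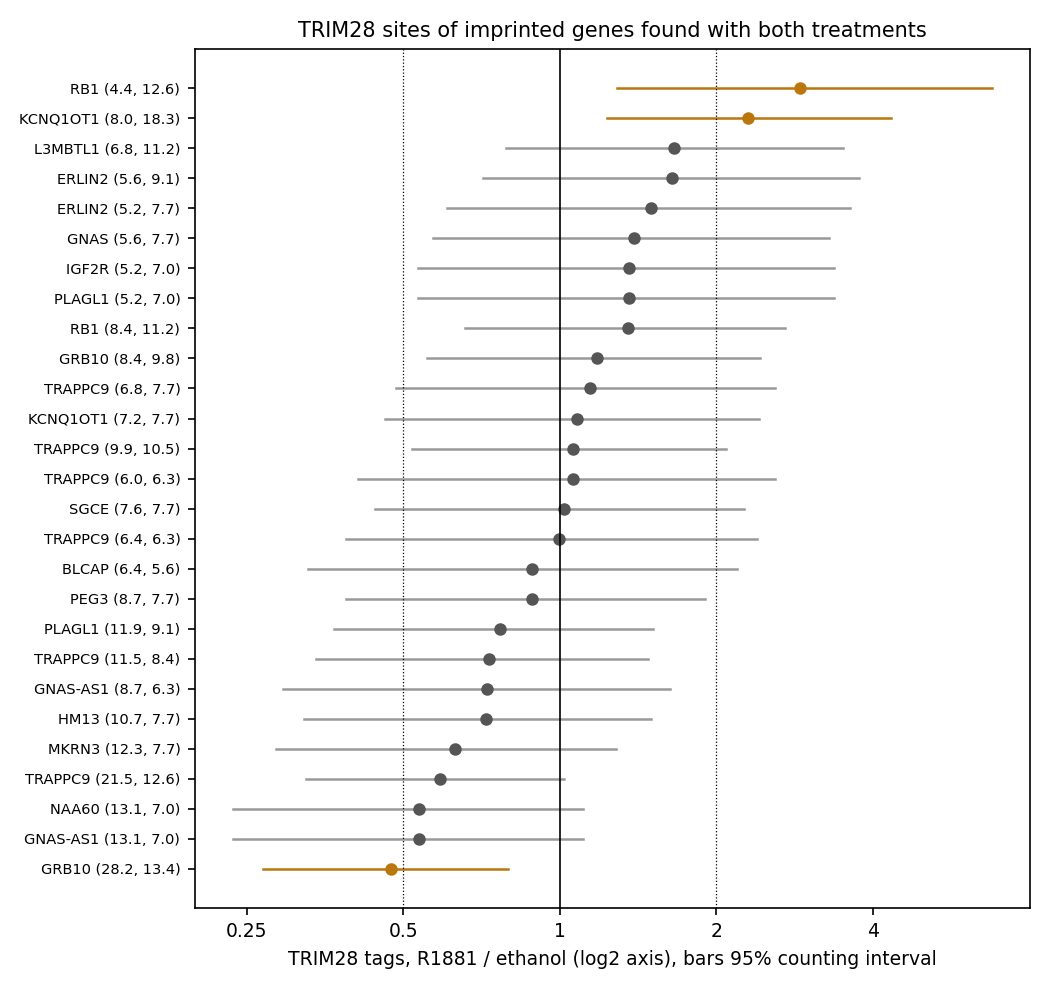
Ratio of R1881 to ethanol (x axis, log2 scale) with its 95% counting interval (bars) for the 27 TRIM28 sites of imprinted genes found with both treatments, labelled by the nearest member and the normalized tags with ethanol and with R1881. The sites of RB1 (2.89) and KCNQ1OT1 (2.30) lie above the upper dotted line at 2 and that of GRB10 (0.473) below the lower one at 0.5, and the intervals of the other sites include 1.

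Sites of TRIM24 and TRIM28 overlapped at 3 places in the imprinted windows with ethanol and at 5 with R1881. With ethanol, 3 of 102 TRIM28 sites (2.94%, Wilson 95% interval 1.01 to 8.29) overlapped a TRIM24 site, against 5.74% of all TRIM28 sites, and with R1881 5 of 48 did (10.4%, 4.53 to 22.2) against 13.6%. Taken from the TRIM24 sites, 3 of 8 (37.5%) overlapped a TRIM28 site with ethanol against 63.8% of all TRIM24 sites, and 5 of 14 (35.7%) did with R1881 against 50.1%. The ethanol sites were at PLAGL1, L3MBTL1 and BLCAP. Those with R1881 were at MKRN3, NAA60, HM13, GRB10 and TRAPPC9. Near a TSS, all 4 members with TRIM24 with ethanol also had TRIM28, and of the 6 with R1881 4 had TRIM28, the exceptions being ERLIN2 and PHLDA2. At IGF2R the TRIM24 and TRIM28 sites near a TSS lay at different starts and did not overlap. Over all protein-coding genes with a TRIM24 site near a TSS, 95.6% also had a TRIM28 site near a TSS with ethanol and 73.3% with R1881, so both being present near a TSS was common at all genes.

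Genes for the proteins that keep imprints were checked from a list of 20. TRIM28 sites lay near a TSS of 12 with ethanol and 11 with R1881, and TRIM24 sites near 7 and 4. These are 60.0% and 55.0% for TRIM28, against 56.5% and 37.5% of all protein-coding genes, and for TRIM24 35.0% with ethanol against 10.6%, while the 4 of 20 with R1881 stood against 18.5%. SETDB1, the histone methyltransferase, had 8.7 normalized tags of TRIM28 with ethanol and 7.0 with R1881. TRIM28 sites lay at the TRIM28 gene itself, with 8.7 normalized tags with ethanol and 9.1 with R1881, as did TRIM24 sites with 8.6 with ethanol and 15.5 with R1881. Of 27 further imprinted genes, 5 had a TRIM28 site near a TSS in each treatment, and 1 and 2 had a TRIM24 site. That is 18.5% in each treatment for TRIM28 and 3.70% and 7.41% for TRIM24, below the shares of protein-coding genes just given, though this list also holds noncoding genes. The strongest was at SNHG14, the long transcript that continues from SNRPN, with 31.4 normalized tags of TRIM28 with ethanol and 25.3 with R1881. Repeated sequence was counted at the sites of the imprinted members only, so it was not checked at SNHG14.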

How the data were processed

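ChIP-seq of HA-TRIM24 and of TRIM28 was analysed in 4 LNCaP samples, 1 for each protein and treatment, grouped by their titles. Per the submitters' processing notes, reads were aligned to hg19 with BWA 0.6.1 and sites were called with HOMER 4.1, in each sample separately. Per the file headers, sites passed an FDR of 0.001 and stood 4-fold above the local 10 kb with a Poisson p-value cut of 1e-04, counting 1 tag per base and naming no input library. The authors deposited for each site a signal (tags scaled to 10000000), a peak score, a fold ratio over the local region and an unadjusted p-value. Scores and p-values were not analysed.

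Whole tags were recovered from the signal for 100% of sites within 0.051 normalized tags. The study's methods describe read totals brought to a like size at random, but the headers give unequal totals, and the headers were used. The depth was 11606880 to 25145171 tags, and a few listed sites lie below the caller's minimum. Sites were assigned by their centre on chromosomes 1 to 22 and X to GENCODE release 44 (GRCh37), and shares of sites use these or all sites. Ratio intervals are exact conditional binomial, density intervals exact Poisson and share intervals Wilson, all at 95%. The members and lists were chosen with earlier results of these data known. By rule, every member with a TRIM28 site near a TSS or any TRIM24 site is given in each sample, the others by counts. Alternatives changed the TSS window, the TSSs, the flank, site strength, depth, matching and overlap. The scripts were tested on simulated sites, with Python 3.11.15, numpy 2.4.6, pandas 2.3.3, scipy 1.17.1, statsmodels 0.14.6 and matplotlib 3.10.9. The sequence of 1 site at least 2-fold apart between treatments is not reported here.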

Additional observations from a re-analysis of the deposited data

Results flagged for a closer look

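The number of sites at the imprinted genes moved in opposite directions for the 2 proteins between treatments. From ethanol to R1881 the log2 ratio of site numbers was 0.81 for TRIM24 (8 and 14 sites) and -1.09 for TRIM28 (102 and 48 sites). Over all sites of the samples the same ratios were 0.84 and -0.75. With 1 sample per condition this difference was not tested. The TRIM28 sample with R1881 had 0.566 times the tags of its ethanol counterpart. At the R1881 depth, 62 of 102 ethanol sites would have reached the minimum, against 31002 of 57690 over chromosomes 1 to 22 and X. The part of depth beyond that in the difference was not tested.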

How the results depend on the processing

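Of 96 results recomputed under an alternative, 68 stayed within 1.5 times the main count or inside the interval of the value, and 28 moved. Requiring at least 10 normalized tags moved most: members with a TSS site fell to 1 and 2 for TRIM24 and to 3 and 1 for TRIM28 (ethanol, then R1881), members with any site to 2 and 3 and to 7 and 6, sites to 2 and 3 and to 8 and 7, and control regions with a site to 0 for TRIM24 with ethanol and to 0 and 1 for TRIM28. With that minimum in the ethanol sample the median TRIM28 ratio was 0.608. This cut selects on the denominator of the ratio, and the median over all matched sites under the same cut was not set beside it. With the minimum on TRIM28 sites the overlap with TRIM24 was 12.5% with ethanol and 0.00% with R1881. Canonical TSSs alone left 2 members for TRIM24 with ethanol, and 12 and 5 for TRIM28. At the R1881 depth TRIM28 with ethanol kept 62 sites and 6 control regions. A window of 1 kb left 7 control regions for TRIM28 with ethanol, and 5 kb gave 1 for TRIM24 with R1881. Canonical anchor starts alone left 6 and 2 control regions for TRIM28. Without TRAPPC9, KCNQ1 and RB1 67 TRIM28 sites remained with ethanol. The lower counts follow from fewer sites or starts admitted, while the cause of the lower median ratio was not tested. Because 1 sample stands for each condition, no difference can be set against the spread between cultures. Most sites held 8 to 33 tags, no matched site under 2-fold apart had an interval without 1, and a site missing from a list may lie below its minimum or have failed another filter.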

Other observations

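The 32-base words of 114 of the 131 member sites all occurred once in the genome, and in 3 sites under 50% did. These 3 were a TRIM24 site upstream of PHLDA2 (7.14%), the IGF2R site of TRIM24 (21.1%) and a TRIM28 site in an IGF2R intron (39.6%).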
